A study of Mus musculus with 5 samples.

Results

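The 10 genes described here encode RNA-binding proteins that shape splicing and transcript stability in neurons: Rbfox1, Rbfox2 and Rbfox3, Elavl2, Elavl3 and Elavl4, Nova1 and Nova2, Ptbp2 and Srrm4. They were chosen by name from the 55421 genes of a raw count table of mouse cerebella, with symbols from GENCODE M21 on GRCm38, and each of the 10 was found once and passed the filter on low counts. The 3 Yy1 cKO libraries came from whole cerebella of mice at postnatal day 14 with the genotype Pcp2 Cre/+; Yy1 fx/fx, and the 2 control libraries from littermates of the same age with Pcp2 Cre/+; Yy1 fx/+. Both groups therefore carried the Cre, which the Pcp2 promoter drives in Purkinje cells, and the controls had 1 floxed and 1 wild-type copy of Yy1, the gene of a zinc finger transcription factor. Animals of both sexes were used, per the labels, and the number of animals behind a library is not stated. The p-values therefore reflect variation among these libraries alone. Sex-linked transcripts, given below, differed between the 2 controls and between Yy1 cKO 3 and the other Yy1 cKO libraries, so these came from different animals. Whether Yy1 cKO 1 and 2 came from different animals is not known, and variation between them may be technical.

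RBFOX proteins bind a GCAUG element in pre-mRNA and raise or lower the use of nearby exons according to where they bind. ELAVL proteins, also called Hu proteins, bind U-rich stretches and act on both splicing and mRNA stability, and NOVA proteins bind clusters of short elements through KH domains. PTBP2 takes over from its relative PTBP1 as neural precursors become neurons and holds back exons of the mature neuron, while SRRM4 promotes the inclusion of microexons. In mice, loss of Rbfox genes or of Elavl3 disturbs the cerebellum and its Purkinje cells, and antibodies against Hu and NOVA proteins are known from paraneoplastic disease of the nervous system.

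Total counts were 18872728 to 20305705 in the Yy1 cKO libraries and 17424860 and 18007663 in the controls. Yy1 had 73.4, 81.7 and 75.8 CPM in Yy1 cKO, against 74.6 and 73.7 CPM in the controls (counts scaled to a library of 1e6 reads and by the trimmed mean of M-values, TMM), a log2 difference of 0.05 ± 0.0649 (SE, adjusted p = 0.61). Cells without Cre dominate whole tissue and gene counts do not separate the floxed part, so this value checks the labels little. Yy1 cKO 3 stood apart from the other 4 libraries on the second principal component, which held 17.5% of the variance of log2 CPM. It was also the only Yy1 cKO library with transcripts of the Y-linked gene Ddx3y (1471 counts, against 1175 in control 1 and 0 in the other libraries), while Xist, the transcript of the inactive X chromosome, was at 6 counts there and at 12 in control 1. The 2 controls, which differed in these transcripts in the same way, lay together on that component (0.00369 and 1.61, against 31.4 for Yy1 cKO 3 and -15.3 and -17.6 for Yy1 cKO 1 and 2). Within Yy1 cKO only library 3 had Ddx3y transcripts, so sex and other differences of that library cannot be told apart. With Xist as a covariate, the same 4 of the 10 genes were called. Values without the library Yy1 cKO 3 are given beside several results. That fit takes the spread of Yy1 cKO from libraries 1 and 2 alone, whose differences may be technical. Its adjusted p-values may therefore be too small, and a call gained there is no stronger evidence.

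Of the 10 genes, 3 were lower in Yy1 cKO and 1 was higher at an adjusted p under 0.05 (edgeR quasi-likelihood test over 20388 genes, Benjamini-Hochberg adjustment). Elavl2, Nova2 and Elavl4 fell, by 0.73, 0.57 and 0.36 on the log2 scale, and Rbfox1 rose by 0.28. Among all genes tested 12.6% were called lower and 10.7% higher, 23.4% in all. The median log2 fold change of the 10 genes was -0.14, against -0.001 over all genes tested. The libraries of the 2 groups did not overlap in 8 of the 10 genes, and in 52.2% of all genes tested. Without Yy1 cKO 3 there were 5 lower and 2 higher, Rbfox2, Ptbp2 and Srrm4 being added. Calls rose over all genes too, to 3127 lower and 2990 higher of 20032, against 2577 and 2185 in the main test. Scaled by library size alone there were 5 lower and 0 higher: Rbfox2 and Ptbp2 were added and Rbfox1 was lost. That scaling called 3369 of all 20388 genes lower and 1432 higher, and moved the median of all genes to -0.079.

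**Figure D1:**
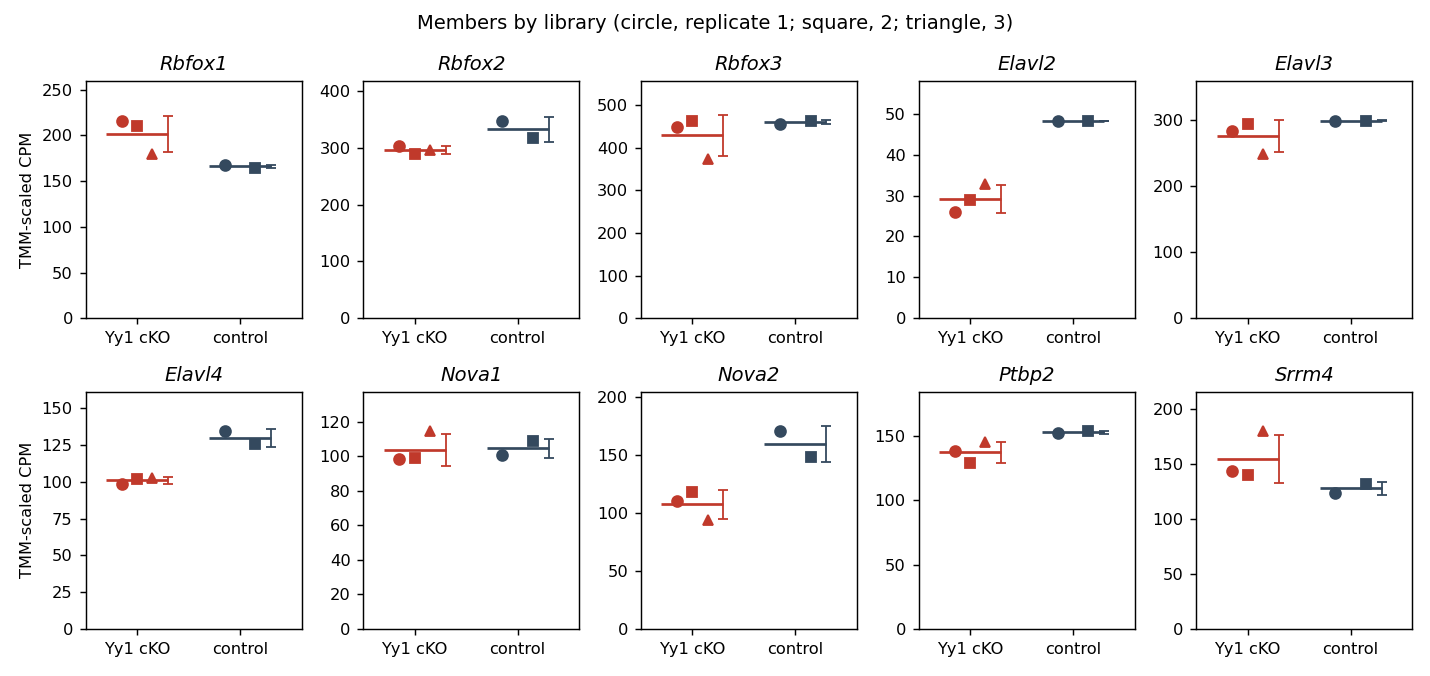
TMM-scaled CPM (vertical axes, from 0) of the 10 genes in each library, Yy1 cKO left of control in every panel; symbols give the replicate, horizontal lines the mean and error bars the SD. Elavl2, Elavl4 and Nova2 lie lower in all 3 Yy1 cKO libraries than in both controls, Rbfox1 lies higher, and the triangle of Yy1 cKO 3 departs from the other Yy1 cKO libraries in Rbfox1, Rbfox3, Elavl3, Nova1, Nova2 and Srrm4.

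The Rbfox family gave 1 call in 3 genes. Rbfox1 (ENSMUSG00000008658.16, chromosome 16, 5885355 to 7411526, GRCm38), the family member found in brain, heart and muscle, had 216.2, 210.1 and 179.6 TMM-scaled CPM in Yy1 cKO, against 167.5 and 164.5 CPM in the controls. All 3 Yy1 cKO libraries stood above both controls, and Yy1 cKO 3 was nearest to them. Rbfox1 rose by 0.28 ± 0.079 on the log2 scale (SE, adjusted p = 0.0299), with a 95% interval of 0.10 to 0.46. Leaving out control 1 ended the call (adjusted p = 0.152), as did leaving out control 2 (0.185), Yy1 cKO 1 (0.0962) or Yy1 cKO 2 (0.0929), while without Yy1 cKO 3 the log2 fold change was 0.36 (adjusted p = 1.18e-05). Scaling by library size alone gave 0.20 (adjusted p = 0.0816).

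Rbfox2 (ENSMUSG00000033565.18, chromosome 15, 77078990 to 77307004), the member with the widest expression outside the nervous system, had 302.9, 289.6 and 296.5 CPM in Yy1 cKO, against 348.4 and 317.6 CPM in the controls. The groups did not overlap, and control 1 was the highest library. The log2 fold change of -0.17 ± 0.0617 did not pass (SE, adjusted p = 0.0787; 95% interval -0.31 to -0.03). Without Yy1 cKO 3 it was called at the same size (-0.17, adjusted p = 0.0238), and without control 1 it was -0.10 (adjusted p = 0.479). Rbfox3 (ENSMUSG00000025576.17, chromosome 11, 118489762 to 118911597) encodes the antigen NeuN, which marks granule neurons of the cerebellum and is absent from Purkinje cells. It had 449.6, 462.9 and 374.2 CPM in Yy1 cKO, against 456.1 and 463.7 CPM in the controls. The groups overlapped, with only Yy1 cKO 3 clearly below the rest. The log2 difference was -0.10 ± 0.0893 (SE, adjusted p = 0.472; 95% interval -0.30 to 0.10), and -0.01 without Yy1 cKO 3.

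In the Elavl family the member with the lowest level changed most. Elavl2 (ENSMUSG00000008489.18, chromosome 4, 91250763 to 91400785), the gene of HuB, had 26.0, 28.85 and 32.8 CPM in Yy1 cKO, against 48.3 and 48.35 CPM in the controls. In reads these were 516, 527 and 611 counts in Yy1 cKO and 899 and 867 counts in the controls. Every Yy1 cKO library lay well below both controls, with Yy1 cKO 3 the highest of the 3. The log2 fold change was -0.73 ± 0.0976 (SE, adjusted p = 0.000655), that is 0.604 of the control level with a 95% interval of 0.519 to 0.703. Without Yy1 cKO 3 it was -0.82, and the call held under all 14 alternatives (adjusted p of at most 0.0138).

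Elavl4 (ENSMUSG00000028546.17, chromosome 4, 110203722 to 110351909), the gene of HuD, which is known for stabilising mRNAs of growing axons, had 98.4, 101.9 and 103 CPM in Yy1 cKO, against 134.5 and 125.5 CPM in the controls. The 3 Yy1 cKO libraries lay close together and below both controls. The log2 fold change was -0.36 ± 0.058 (SE, adjusted p = 0.00176), or 0.778 of the control level (95% interval 0.711 to 0.851), and the call held under all 14 alternatives (adjusted p of at most 0.0444). Elavl3 (ENSMUSG00000003410.8, chromosome 9, 22015005 to 22052023), the gene of HuC, which neurons of most kinds carry, had 283.7, 294.3 and 247.6 CPM in Yy1 cKO, against 298.8 and 297.9 CPM in the controls. The groups did not overlap, but Yy1 cKO 2 lay within a few CPM of the controls and most of the difference came with Yy1 cKO 3. The log2 fold change was -0.12 ± 0.0756 (SE, adjusted p = 0.313; 95% interval -0.29 to 0.05), and -0.05 without Yy1 cKO 3.

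Of the Nova genes 1 of 2 was called. Nova2 (ENSMUSG00000030411.16, chromosome 7, 18925888 to 18965319) had 109.9, 118.1 and 93.7 CPM in Yy1 cKO, against 170.3 and 148.3 CPM in the controls. All Yy1 cKO libraries lay below both controls, although the spread within each group was wider than for Elavl4. Nova2 fell by 0.57 ± 0.103 on the log2 scale (SE, adjusted p = 0.00633), to 0.673 of the control level (95% interval 0.570 to 0.795), and leaving out control 1 ended the call (-0.47, adjusted p = 0.0562). Of its merged exon length 31.7% overlaps Gm26821, a lincRNA gene on the opposite strand, for which the deposited counts hold no row. The strand setting of the counting is not given in the sources used here, so reads of both genes cannot be told apart. Nova1 (ENSMUSG00000021047.7, chromosome 12, 46694517 to 46818929), the paralog best known from hindbrain and spinal cord, had 98.2, 98.7 and 114.4 CPM in Yy1 cKO, against 100.8 and 108.5 CPM in the controls. The groups overlapped, and the log2 fold change was -0.01 ± 0.0781 (SE, adjusted p = 0.936), with a 95% interval of -0.19 to 0.16. Its sign differed among the alternatives, which ran from -0.09 to 0.04.

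Ptbp2 (ENSMUSG00000028134.11, chromosome 3, 119718742 to 119784466) had 138.3, 129 and 145.4 CPM in Yy1 cKO, against 152.2 and 153.9 CPM in the controls. The groups did not overlap, and the 2 controls lay closer to each other than the Yy1 cKO libraries did. The log2 fold change of -0.15 ± 0.0622 did not pass (SE, adjusted p = 0.108; 95% interval -0.29 to -0.01), but did when Yy1 cKO 3 was left out (-0.19, adjusted p = 0.00765) or only library size was used for scaling (-0.23, adjusted p = 0.0296). Srrm4 (ENSMUSG00000063919.11, chromosome 5, 116439275 to 116591817) had 143.4, 140 and 179.5 CPM in Yy1 cKO, against 123.7 and 131.6 CPM in the controls. All Yy1 cKO libraries lay above both controls, with Yy1 cKO 3 far above the other 2. The log2 difference of 0.27 ± 0.111 did not pass (SE, adjusted p = 0.127; 95% interval 0.01 to 0.54). Without Yy1 cKO 3 the estimate was smaller, at 0.15, but was called (adjusted p = 0.0346). With no filter on low counts Srrm4 was also called, at nearly the main estimate (0.28, adjusted p = 0.000237, edgeR's quasi-likelihood test). That fit also took the adjusted p of Nova2 from 0.00633 to 1.34e-16 at a similar fold change, and left that of Ptbp2 at 0.109. The cause was not tested.

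**Figure D2:**
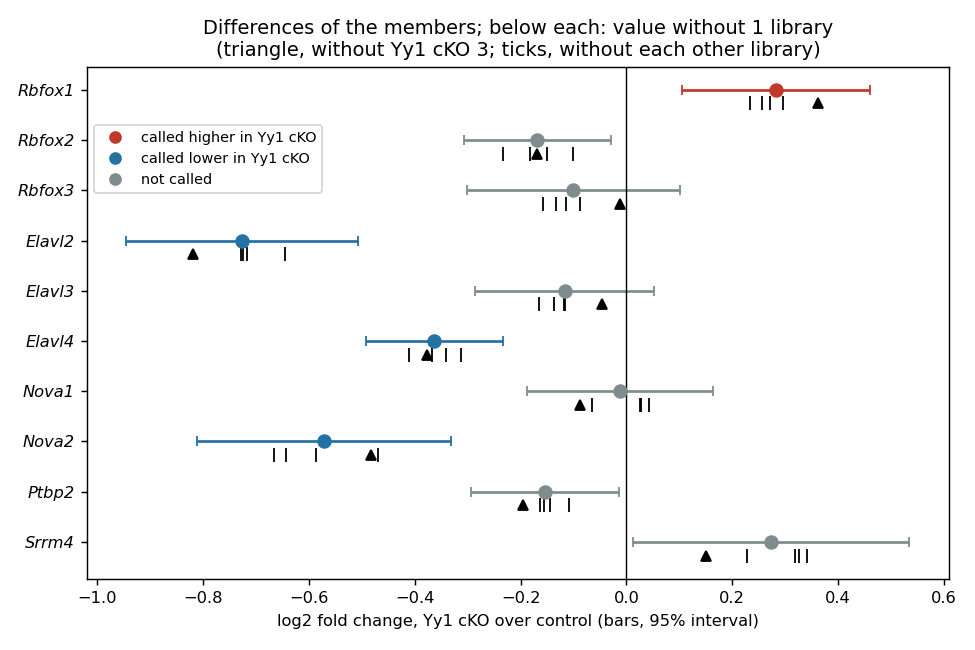
Log2 fold change of each gene, Yy1 cKO over control (horizontal axis), as a point with its 95% interval, and below it the values without each library in turn, with the triangle for the value without Yy1 cKO 3. The intervals of Elavl2, Nova2 and Elavl4 lie well below 0 and that of Rbfox1 above it, and the point of Elavl2 is the lowest at -0.73.

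The promoters of the 4 called genes are shown because Yy1 is the gene deleted. Whether YY1 acts on any of these genes was not tested. Windows run from 250 bases before to 50 bases after a RefSeq start on GRCm38.p6, 9 of the 10 genes had at least 1, and for each called gene the most 5′ of its windows is printed 5′ to 3′ along the gene. Capitals mark a match to the letters ATGGCG, part of the known YY1 motif:
Elavl2 (chr4:91399935-91400234, minus strand): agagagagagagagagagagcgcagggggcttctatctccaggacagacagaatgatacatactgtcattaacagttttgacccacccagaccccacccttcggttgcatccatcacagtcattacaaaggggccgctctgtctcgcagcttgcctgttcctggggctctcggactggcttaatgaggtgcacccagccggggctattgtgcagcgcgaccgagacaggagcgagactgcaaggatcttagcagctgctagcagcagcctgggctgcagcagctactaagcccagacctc
Elavl4 (chr4:110351862-110352161, minus strand): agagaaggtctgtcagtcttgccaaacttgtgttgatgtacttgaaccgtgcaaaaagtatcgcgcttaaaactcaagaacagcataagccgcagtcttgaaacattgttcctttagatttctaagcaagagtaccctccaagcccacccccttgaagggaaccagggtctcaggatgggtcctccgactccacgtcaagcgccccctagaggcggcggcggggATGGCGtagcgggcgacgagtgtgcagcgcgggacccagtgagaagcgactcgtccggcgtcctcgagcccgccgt
Nova2 (chr7:18925638-18925937, plus strand): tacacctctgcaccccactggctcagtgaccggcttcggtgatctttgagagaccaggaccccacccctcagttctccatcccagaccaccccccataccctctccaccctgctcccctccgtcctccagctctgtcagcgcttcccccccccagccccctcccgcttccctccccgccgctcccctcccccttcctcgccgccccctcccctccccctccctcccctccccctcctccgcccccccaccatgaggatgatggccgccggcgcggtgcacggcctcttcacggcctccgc
Rbfox1 (chr16:5884543-5884842, plus strand): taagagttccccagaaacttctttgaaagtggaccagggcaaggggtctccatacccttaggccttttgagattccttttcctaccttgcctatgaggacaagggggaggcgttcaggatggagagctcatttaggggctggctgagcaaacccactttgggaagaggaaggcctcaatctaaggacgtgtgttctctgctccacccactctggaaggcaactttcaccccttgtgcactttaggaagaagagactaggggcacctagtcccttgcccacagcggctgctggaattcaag

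Both strands of all 18 windows of the 9 genes were searched. The longer YY1 motif AANATGGC was in 0 of the 18 windows, against 6.05% of the 32851 windows of all genes. The shorter ATGGCG, which overlaps the longer one when a G follows, was in 3 of the 18 windows, against 8.93% of all windows. The 3 were the most 5′ window of Elavl4 and the windows of Nova1 and Srrm4, which were not called. In Elavl4 the match starts 26 bases before the start site and in Srrm4 155 bases before it. In Nova1 it lies after the start site, from base 20 on. The 18 windows were richer in CpG, which ATGGCG contains, than all windows (median 17.5 against 7 CpG a window, and 56.9% against 52.7% GC), so that share is for windows of unlike composition. The windows of a gene can overlap each other, and a match is a description of letters only.

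Per exon length Rbfox3 had the highest level of the 10 genes and Elavl2 the lowest in both groups. Levels between genes are given as TMM-scaled CPM per kilobase of merged exons, mean ± SD, with n = 3 in Yy1 cKO and n = 2 in control. Rbfox3 stood at 73.7 ± 8.22 in Yy1 cKO and 79.1 ± 0.923 in the controls, and Elavl2 at 3.51 ± 0.413 and 5.81 ± 0.00402. In Yy1 cKO the order below Rbfox3 ran over Rbfox1 (45.9 ± 4.45), Elavl3 (39.9 ± 3.55) and Rbfox2 (36.4 ± 0.818) to Elavl4 (18.8 ± 0.451), Srrm4 (17.8 ± 2.52), Ptbp2 (14.99 ± 0.892), Nova2 (12.8 ± 1.48) and Nova1 (11.9 ± 1.06). Neighbours whose Yy1 cKO libraries overlapped were Rbfox1 and Elavl3, Elavl3 and Rbfox2, Elavl4 and Srrm4, Ptbp2 and Nova2, and Nova2 and Nova1. In the controls the order below Rbfox3 was Elavl3 (43.3 ± 0.0905), Rbfox2 (40.9 ± 2.67), Rbfox1 (37.7 ± 0.485), Elavl4 (24.1 ± 1.18), Nova2 (19.0 ± 1.85), Ptbp2 (16.7 ± 0.131), Srrm4 (14.7 ± 0.637) and Nova1 (11.96 ± 0.620), and no neighbours overlapped between their 2 libraries. Rbfox1 was thus the second gene in Yy1 cKO and the fourth in the controls, and Nova2 the eighth and the sixth. By the longest transcript in place of merged exons, Rbfox1 was the second gene in Yy1 cKO and the third in the controls, and Nova2 the ninth, below Nova1, and the seventh. The length moved Ptbp2 too, whose merged exons span 9175 bases and longest transcript 4047: by the longest transcript it stood at 34.0 CPM per kilobase in Yy1 cKO and 37.8 in the controls, above Elavl4 in both groups.

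**Figure D3:**
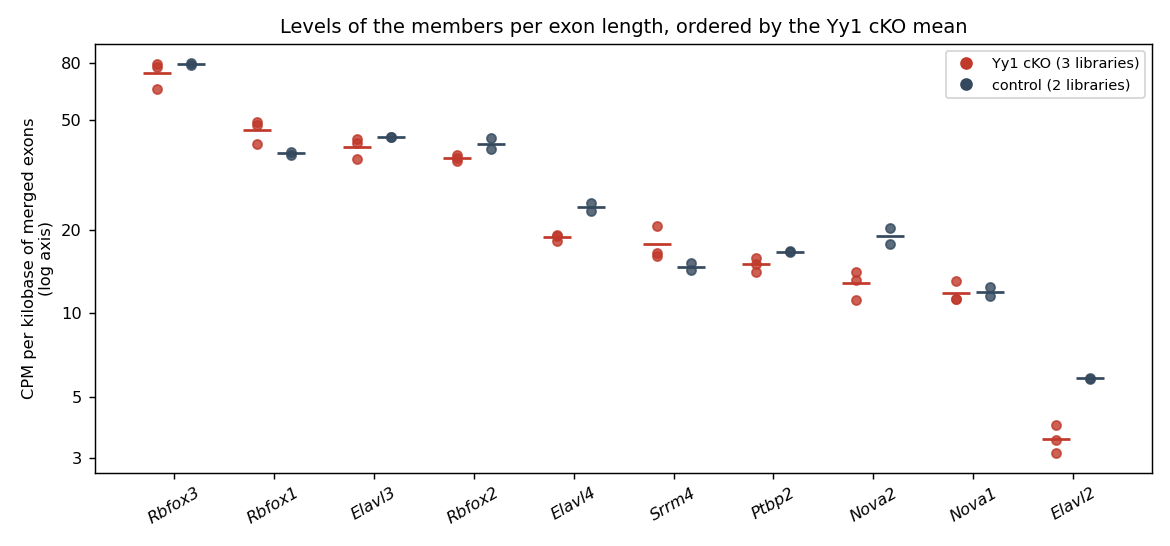
Levels of the 10 genes in CPM per kilobase of merged exons on a log axis, ordered by the Yy1 cKO mean, with 1 point per library, a line at the mean, and Yy1 cKO left of control for each gene. Rbfox3 is at the top in both groups and Elavl2 at the bottom, and Rbfox1 is the only gene of the leading 4 whose Yy1 cKO points all lie above its control points.

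The levels were also set against those of paralogs. Among the summed Rbfox levels per kilobase, Rbfox1 made up 29.4% ± 0.599 in Yy1 cKO and 23.9% ± 0.0317 in the controls (SD, n = 3 and 2), while the sum itself was 156 ± 12.5 CPM per kilobase in Yy1 cKO and 157.7 ± 2.24 in the controls. The Elavl sum was 62.2 ± 3.06 in Yy1 cKO and 73.3 ± 1.27 in the controls, and Elavl3 made up 64.1% ± 2.78 of it in Yy1 cKO and 59.1% ± 0.9 in the controls. The Nova sum was 24.7 ± 0.617 in Yy1 cKO and 31.0 ± 1.23 in the controls. Libraries of the 2 groups did not overlap in the Elavl and Nova sums and overlapped in the Rbfox sum.

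The ratio of 2 genes within a library does not depend on the scaling of libraries. The log2 ratio of Rbfox1 to Rbfox3 was -1.06, -1.14 and -1.06 in Yy1 cKO, against -1.45 and -1.50 in the controls. Yy1 cKO 3, which had the lowest level of both genes in its group, had a ratio within the range of the other 2. That of Nova1 to Nova2 was -0.16, -0.26 and 0.29 in Yy1 cKO, against -0.76 and -0.45 in the controls, and Yy1 cKO 3 was the highest library. Per kilobase, Nova1 made up 46.1%, 44.4% and 53.9% of the Nova sum in Yy1 cKO, against 36.2% and 41.2% in the controls. The difference in log2 ratio was 0.39 for Rbfox1 to Rbfox3, 0.45 for Rbfox1 to Rbfox2, 0.56 for Nova1 to Nova2 and -0.37 for Elavl2 to Elavl4, each at p = 0.1 in a two-sided exact permutation test. Without Yy1 cKO 3 these differences were 0.37, 0.53, 0.39 and -0.44. That p is the smallest that 3 against 2 libraries allow in this test, and it requires groups that do not overlap. Adjusted over the 9 ratios compared it is 0.225, so 0 of the 9 ratios passed. The groups also did not overlap in the ratios of Elavl2 and of Elavl4 to Elavl3. The ratio of Elavl2 to Elavl3 differed by -0.61 and that of Elavl4 to Elavl3 by -0.24 (p = 0.2 each, exact permutation test, adjusted p = 0.3), and without Yy1 cKO 3 by -0.77 and -0.33. For Ptbp2 to Ptbp1 the difference was 0.07 (p = 0.5), for Srrm4 to Srrm3 0.21 (p = 0.6) and for Rbfox2 to Rbfox3 -0.06 (p = 0.7, all by the exact permutation test), with overlapping groups. These 3 values moved with single libraries. For Ptbp2 to Ptbp1 they ran between 0.015 without control 1 and 0.131 without Yy1 cKO 2, and for Srrm4 to Srrm3 between 0.022 without Yy1 cKO 3 and 0.303 without control 2. For Rbfox2 to Rbfox3 they ran between -0.156 without Yy1 cKO 3 and 0.018 without control 1.

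**Figure D4:**
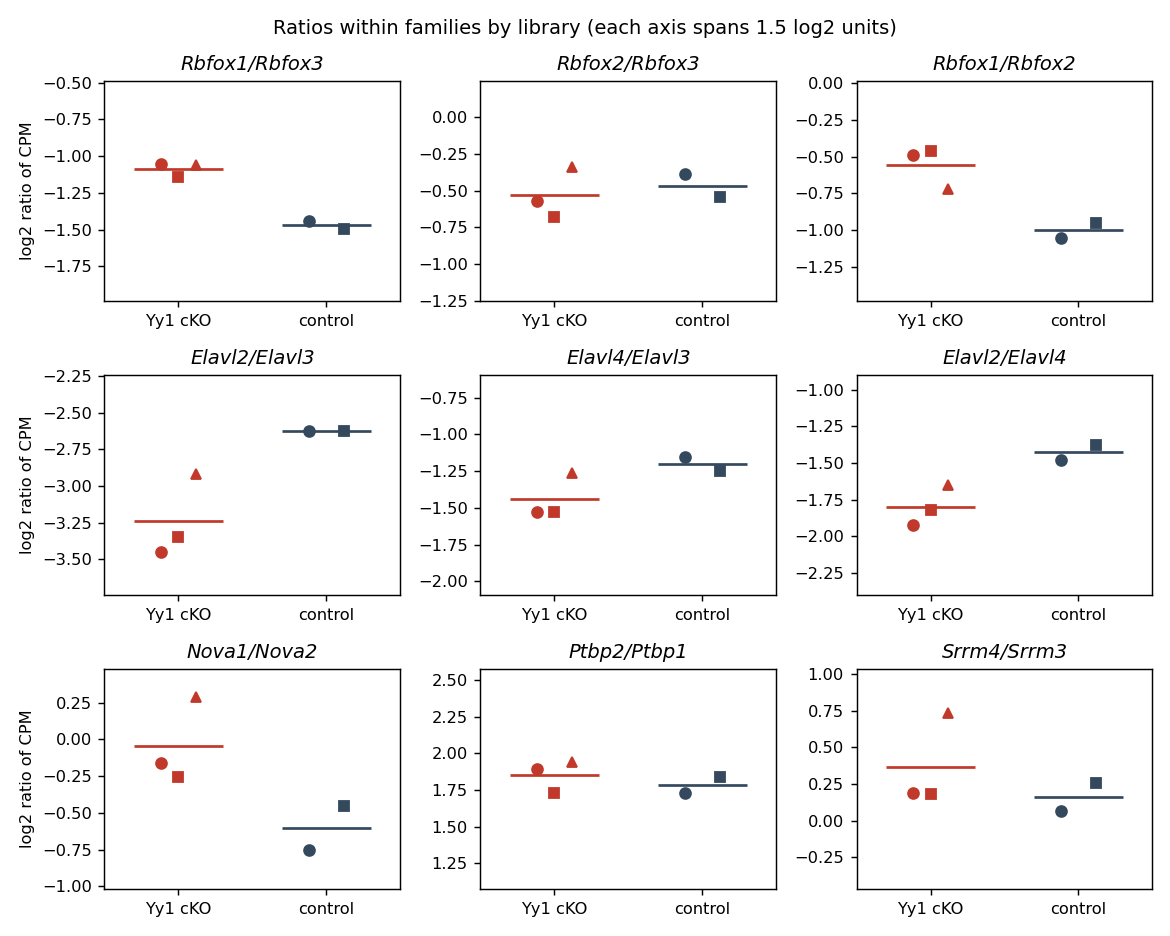
Log2 ratio of CPM (vertical axes, each spanning 1.5 log2 units) of 9 pairs of related genes in each library, Yy1 cKO left of control, with lines at the means. The groups are separate for Rbfox1 to Rbfox3, Rbfox1 to Rbfox2, Elavl2 to Elavl3, Elavl4 to Elavl3, Elavl2 to Elavl4 and Nova1 to Nova2, and overlap for the other pairs.

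Close relatives outside the 10 genes gave 1 higher and 2 lower calls of 6. Ptbp1, which represses neuronal exons in precursors and glia, had 37.3, 38.9 and 37.8 CPM in Yy1 cKO, against 45.8 and 43 CPM in the controls. It fell by 0.23 ± 0.0703 on the log2 scale (SE, adjusted p = 0.0442), a call lost without either control (adjusted p = 0.277 without control 1 and 0.135 without control 2), without Yy1 cKO 1 (0.146) or 2 (0.0865), and with DESeq2 (0.15), in all under 7 of 14 alternatives. Ptbp3 fell by 0.25 ± 0.0725 (adjusted p = 0.0337) and was lost without the same 4 libraries (adjusted p = 0.118, 0.222, 0.113 and 0.0649) and with DESeq2 (0.107). Srrm2, a large splicing scaffold protein, rose by 0.35 ± 0.0764 (adjusted p = 0.0092) and was named after its value was seen. Elavl1, the Hu protein HuR of most cell types, differed by -0.10 ± 0.0675 on the log2 scale (adjusted p = 0.315), and Srrm3, which also promotes microexons, by 0.06 ± 0.0765 (adjusted p = 0.621).

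Most other RNA-binding proteins, like most of all genes tested, were not called. Of 60 neuron-enriched RNA-binding proteins tested, of 65 listed, 10 fell, 5 rose and 45 were not called (median log2 difference -0.01), where 23.4% of all genes tested were called. Celf2, a regulator of splicing and mRNA decay, had 282.4 ± 15.2 CPM in Yy1 cKO and 449 ± 16.9 CPM in the controls (SD, n = 3 and 2; log2 fold change -0.67 ± 0.0647, SE, adjusted p = 9.75e-05). Rbms3 fell by 0.89 ± 0.0972, Khdrbs2, the STAR protein SLM1, by 0.74 ± 0.112, and Nono, a paraspeckle protein, by 0.35 ± 0.0549. Cpeb3 and Cpeb4, which control translation through cytoplasmic polyadenylation elements, rose by 0.52 ± 0.0556 and 0.34 ± 0.0642, Mbnl1, which drives splicing patterns of mature tissue, by 0.43 ± 0.0561 and Fxr2 by 0.32 ± 0.0697. Among all genes tested 12.6% were called lower and 10.7% higher. Of 20 heterogeneous nuclear ribonucleoproteins 6 fell, 0 rose and 14 were not called (median -0.14). Hnrnpab had 73.4 ± 6.04 CPM in Yy1 cKO and 107.4 ± 3.25 CPM in the controls (log2 fold change -0.55 ± 0.0743, adjusted p = 0.000681), Hnrnpa1 fell by 0.45 ± 0.0657, and Hnrnpk and Hnrnpf by 0.21 each. Hnrnpa1 has processed pseudogenes that can share its reads, so its own value is uncertain. Of 26 SR proteins and their kinases 3 fell, Srsf3 (by 0.39 ± 0.0596), Srsf6 (by 0.30 ± 0.0675) and Tra2b (by 0.27 ± 0.0567), 1 rose, Sfswap (by 0.17 ± 0.056), and 22 were not called (median 0.02). The call of Sfswap was at the threshold (adjusted p = 0.05 after rounding, edgeR's quasi-likelihood test). Scaled by library size only, 14 of the heterogeneous nuclear ribonucleoproteins and 9 of the SR proteins and kinases fell, and 0 of either rose. Over all 20388 genes that scaling called 3369 lower and 1432 higher and moved the median to -0.079, so these counts hold a shift of all genes.

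Genes whose transcripts are known to be processed or stabilised by these factors moved in both directions. Of 35 such genes 15 rose and 6 fell (median log2 difference 0.10), against 10.7% higher and 12.6% lower among all genes tested. Vamp1, a vesicle protein of fast synapses whose level RBFOX1 is known to raise in mouse neurons, had 145.5, 143.5 and 132.7 CPM in Yy1 cKO, against 82.3 and 84.6 CPM in the controls (log2 fold change 0.75 ± 0.0623, SE, adjusted p = 3.83e-05). Its Yy1 cKO libraries all lay far above the controls. Dlg4, which encodes PSD-95 and is held back by the PTBP proteins through nonsense-mediated decay, rose by 0.38 ± 0.0571, the NMDA receptor subunit gene Grin1 by 0.43 ± 0.0619 and the transcription factor gene Camta1 by 0.39 ± 0.0625. Glra2, a glycine receptor subunit with a NOVA1-dependent exon, had 6.996, 5.53 and 8.97 CPM in Yy1 cKO, against 25.15 and 26.99 CPM in the controls (log2 fold change -1.86 ± 0.169, adjusted p = 0.000122). Flna, an actin crosslinker with a PTBP1-repressed exon, fell by 0.52 ± 0.0588, the calcium channel gene Cacna1b by 0.34 ± 0.0717 and Cadps2, of dense core vesicles, by 0.32 ± 0.0734. These are gene counts and do not measure exon use. Scaled by library size only, 11 of the 35 rose and 7 fell, where 1432 of all 20388 genes rose and 3369 fell.

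Markers of young neurons were far lower in the same libraries. Of 16 immature neuron genes 15 fell and 0 rose (median log2 fold change -2.03), and their summed level was 1590 to 1786 CPM in Yy1 cKO and 3293 to 3359 CPM in the controls. Dcx, a microtubule protein of migrating neurons, fell by 3.88 ± 0.0659 on the log2 scale and Sox11, a transcription factor gene of young neurons, by 3.72 ± 0.0893. Of 26 cell cycle genes 22 fell and 0 rose (summed level 79.6 to 83.2 CPM in Yy1 cKO, 210.4 to 246.2 CPM in the controls), and of 12 genes of granule cell precursors 7 fell and 1 rose (summed level 1543 to 1679 CPM in Yy1 cKO, 1782 to 1783 CPM in the controls). Of 12 mature granule neuron genes 10 rose and 0 fell (summed level 6659 to 7312 CPM in Yy1 cKO, 5079 to 5120 CPM in the controls), and of 12 interneuron genes (molecular layer and Golgi cells) 6 rose and 1 fell. Of 18 Purkinje cell genes 6 rose and 0 fell (summed level 7571 to 9008 CPM in Yy1 cKO, 6375 to 6542 CPM in the controls). In each of these lists 0 genes were at 0 in all libraries. The part of cell composition in the values of the 10 genes was not tested, and in bulk tissue fewer cells of a type and less RNA per cell cannot be told apart.

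Markers of glia, other neurons, vessels and blood were counted in the same way. Astrocytes and Bergmann glia gave 4 higher and 2 lower of 12, mature oligodendrocytes 3 and 1 of 10, microglia 0 and 1 of 9, unipolar brush and nuclear neurons 1 and 2 of 7, and choroid plexus 1 and 1 of 4. Oligodendrocyte precursors gave 0 higher and 6 lower of 10, endothelial and mural cells 1 and 6 of 10, and erythroid cells 4 and 0 of 6. In the astrocyte and Bergmann glia list Itih3 rose by 2.05 ± 0.104, S100b by 0.70 ± 0.0563 and Slc1a3, a glutamate transporter gene, by 0.38 ± 0.0711. The 2 genes that fell, named after their values were seen, were Fabp7, a marker of Bergmann glia, by 1.91 ± 0.342 and Aqp4, the water channel gene of astrocytes, by 0.53 ± 0.114. Pdgfra, of oligodendrocyte precursors, fell by 0.50 ± 0.0947.

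**Figure D5:**
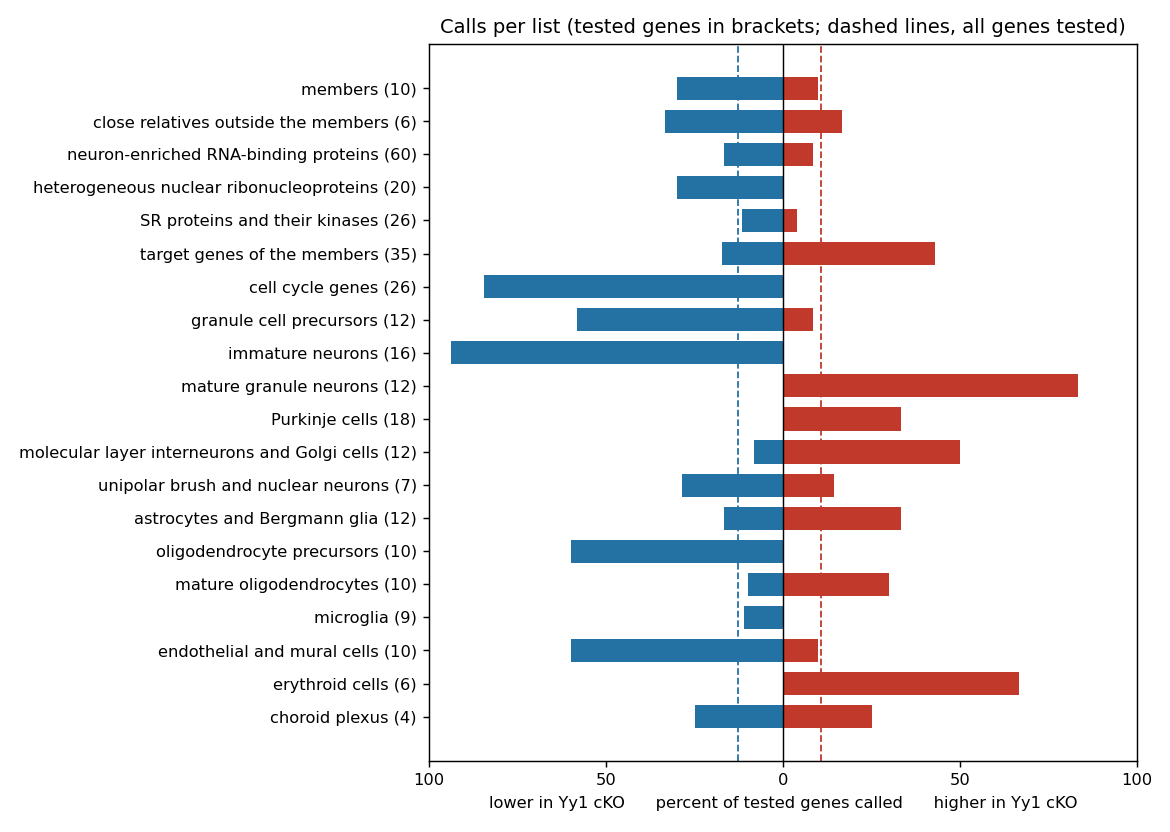
Percent of the tested genes of each list called higher (right) or lower (left) in Yy1 cKO, with the number tested in brackets and dashed lines at the shares of all 20388 genes, 10.7% and 12.6%. The immature neuron list has nearly all its genes on the lower side, 15 of 16, and the mature granule neuron list has 10 of 12 on the higher side.

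Genes with the pattern most like that of the leading members were sought among 12876 genes with a mean of at least 5 CPM, by the root mean square difference of mean-centred log2 CPM over the 5 libraries. For Elavl2 these were Dsel (0.0288), R74862 (0.0357) and Fat4 (0.0402). Dsel had 11.1, 11.8 and 14.0 CPM in Yy1 cKO, against 20.04 and 20.75 CPM in the controls. For Rbfox1 they were Habp4 (0.0134), Ttll5 (0.016) and Bbs1 (0.0175), and Habp4 had 74.0, 71.3 and 60.7 CPM in Yy1 cKO, against 57.65 and 56.9 CPM in the controls. With 5 libraries such likeness is a description only.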

How the data were processed

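Whole cerebella were profiled by RNA-seq in 3 Yy1 cKO and 2 control libraries, grouped by their titles. TRIzol RNA was depleted of ribosomal RNA and made into strand-specific libraries, per the labels. The submitters' processing notes name STAR 2.7.1a and featureCounts on GRCm38, besides Trimmomatic 0.39, FastQC 0.11.8 and DESeq2 1.26.0. Their settings, strand and multiply mapped reads included, were not given in the sources used here. The authors deposited raw counts, as whole numbers per gene, which were used as deposited. A second deposited table, the same counts divided by 1 constant per library, was not used.

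Symbols came from GENCODE M21, where 54673 identifiers matched with their version, 567 without it and 181 not at all. The main test was edgeR 4.0.16 (R 4.3.3), quasi-likelihood with TMM scaling, filterByExpr, robust dispersion and no covariate, on all 20388 genes kept, with Benjamini-Hochberg adjustment at 0.05. SEs and 95% intervals come from the quasi-likelihood statistic. The pipeline was tested on simulated counts. Alternatives were other scalings and filters, DESeq2 1.42.0, limma-voom (limma 3.58.1), no robust dispersion, a replicate block, Xist as a covariate, and each library left out; with 1 control left, it is assumed to vary like the Yy1 cKO libraries. Named genes beyond the 10 were close relatives, in each list of RNA-binding or target genes up to 4 per direction by p, in each marker list up to 3 by p, and the 3 most similar profiles for the leading gene in each direction; the text gives fewer. The genes and lists were chosen with earlier results of these data known. Promoters are from RefSeq tables on GRCm38.p6.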

Additional observations from a re-analysis of the deposited data

How the results depend on the processing

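Across the 10 genes and 14 alternatives, 125 of 140 values stayed on their side of the threshold, 6 called values no longer passed, 9 values newly passed, and 0 called values changed sign. The main counts of 3 lower and 1 higher became 5 lower and 0 higher with scaling by library size alone. With no filter on low counts 2 were higher. With the replicate number as a block the counts were 5 lower and 2 higher. Same-numbered libraries hardly deviated together (r of 0.04 and 0.022 over genes), the labels tie the numbers to no litter or day, and the block leaves Yy1 cKO 3 out of the comparison. Leaving out 1 library gave 0 to 2 higher and 2 to 5 lower. Over all genes the main test called 2185 higher and 2577 lower, scaling by library size alone 1432 higher and 3369 lower, and the replicate block 3486 higher and 3575 lower. Leaving out 1 library gave 887 to 2990 higher and 1267 to 3127 lower, with the lowest counts when a control was left out. DESeq2 gave 1861 higher and 1957 lower. By the longest transcript, 5 of the 10 genes kept their place in the order of levels in each group. Rbfox2, Ptbp2 and Srrm4, at unadjusted p of 0.0219, 0.0342 and 0.0425 in edgeR's quasi-likelihood test, newly passed under 3 alternatives each, Rbfox1 was lost under 5 and Nova2 under 1, and 2 controls limit the precision of every value. The causes of these changes were not tested.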
